A study of Mus musculus with 12 samples.

Results

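FK506 (tacrolimus) given alone to stimulated mouse CD4+ T cells was compared with the same stimulation without a drug (Control). The comparison took 6 of the 12 samples of the series, 3 FK506 and 3 Control, chosen by their labels. Genes entered the test when their FPKM, a count of fragments scaled to transcript length and library size, was at least 0.5 in at least 3 of these 6 samples, which left 14497 of 45777 listed genes. Cells of both groups came from the spleen of wild type C57BL/6 mice labelled as 7 weeks old and were held for 3 days with anti-CD3 at 0.5 µg/ml, an antibody that triggers the T cell receptor. The FK506 cultures differed by the drug, whose dose in these cultures is not given in the sources used here. The methods of the study describe purification with magnetic beads that bind CD4, list soluble anti-CD28 among the activation conditions, and give an older age for the mice. The remaining 6 samples received metformin, without or with FK506, and are used only in the last paragraphs. No source used here says that the replicates were separate animals or cultures, so the p-values measure only the spread between these samples, which may be technical.

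FK506 binds the immunophilin FKBP12, and the complex blocks calcineurin, a phosphatase that calcium activates after T cell receptor engagement. Calcineurin removes phosphates from the NFAT factors, which then enter the nucleus and, with AP-1, turn on cytokine genes such as Il2 and Il4. The drug is used to prevent graft rejection because T cells that lack this signal make little IL-2.

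NFAT recognises a GGAAA core, read as TTTCC on the other strand. The windows of 250 bases before the start of 4 cytokine genes are shown because all 4 fell with FK506, Il2 by the smallest amount of the 4 on the log2 scale and Il13 by the largest. The sequences are RefSeq promoters of GRCm38.p6, written 5′ to 3′ on the strand of the gene, and all 4 genes lie on the minus strand. Capitals mark each GGAAA or TTTCC. The windows lie at chr3:37125955-37126204 for Il2, chr11:53618666-53618915 for Il4, chr11:53634703-53634952 for Il13 and chr3:37232637-37232886 for Il21.
Il2: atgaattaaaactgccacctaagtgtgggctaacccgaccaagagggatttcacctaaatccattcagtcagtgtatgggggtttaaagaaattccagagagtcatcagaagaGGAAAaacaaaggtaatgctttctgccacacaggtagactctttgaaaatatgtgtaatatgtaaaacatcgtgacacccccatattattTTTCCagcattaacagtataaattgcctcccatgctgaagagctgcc
Il4: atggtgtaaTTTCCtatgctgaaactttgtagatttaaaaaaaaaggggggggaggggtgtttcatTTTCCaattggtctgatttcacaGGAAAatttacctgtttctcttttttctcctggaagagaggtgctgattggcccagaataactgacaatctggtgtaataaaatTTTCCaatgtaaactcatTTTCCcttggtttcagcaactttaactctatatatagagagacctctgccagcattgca
Il13: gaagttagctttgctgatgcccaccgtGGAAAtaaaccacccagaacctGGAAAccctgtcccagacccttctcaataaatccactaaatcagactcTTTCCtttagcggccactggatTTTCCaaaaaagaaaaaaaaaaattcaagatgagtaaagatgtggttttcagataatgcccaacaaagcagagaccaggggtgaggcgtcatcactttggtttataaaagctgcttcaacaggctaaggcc
Il21: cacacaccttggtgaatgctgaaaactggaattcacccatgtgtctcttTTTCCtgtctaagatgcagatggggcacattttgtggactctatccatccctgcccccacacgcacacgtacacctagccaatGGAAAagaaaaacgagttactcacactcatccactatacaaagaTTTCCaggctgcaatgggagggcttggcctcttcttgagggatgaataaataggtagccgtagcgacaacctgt
The core occurred 2 times in the Il2 window, 5 times in Il4, 4 times in Il13 and 3 times in Il21. Of 27025 genes with a promoter in the table, 55.6% held at least 1 core in a window of this length. It was present in 21 of the 22 windows found for a list of 27 cytokine genes and in 7 of the 21 found for the list of FK506 binding proteins, calcineurin and NFAT (33.3%). The window of Tnf, which fell by 0.80, held 3 cores, and that of Lif, which fell by 5.82, held 1. Among genes at least 1 lower with FK506 on the log2 scale, 54.4% of the windows held it, and among genes at least 1 higher 53.8% did, both close to the share over all genes.

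The deposited counts summed to between 48806123 and 57284196 in the Control samples and between 45675960 and 63164427 in the FK506 samples. On log2(FPKM + 1) over the tested genes, the Euclidean distance between samples was 17.8 to 19.1 within Control, 21.8 to 23.2 within FK506 and 134.6 to 136.6 between the groups, and no library stood apart from its own group. The labelled cell type was present in both groups: Cd4 was at 143, 139 and 139 FPKM in Control and at 197, 203 and 196 with FK506, and the summed FPKM of 20 T cell genes was 4436 to 4530 and 4483 to 4687. Of 6 sex-linked genes 1 passed the filter, and 4 were at 0 in every sample of both groups. Markers of other cells were also present. The 16 B cell markers summed to 284 to 329 FPKM in Control and 4674 to 4898 with FK506, and 15 markers of monocytes and macrophages to 6.70 to 6.85 and 1398 to 1454. In bulk samples, fewer cells of a type and less RNA per cell cannot be told apart.

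Most tested genes differed in level between the FK506 and Control samples. By edgeR's quasi-likelihood test, 12149 of 14497 genes passed an adjusted p under 0.05 (83.8%), 6185 of them higher (42.7%) and 5964 lower (41.1%). By a second rule that also asked for a log2 fold change of 1 or more, 5177 genes were called (35.7%), 2760 higher (19.0%) and 2417 lower (16.7%). These counts, the background of the lists below, went to 1693 higher after quantile normalization, to 1388 lower on log2(FPKM + 1) and to 8064 in all without the filter. In FPKM the groups did not overlap for 85.3% of the tested genes, with FK506 above Control for 51.6% and below it for 33.7%. At a change of at least 3, 1162 genes rose and 306 fell. Of the genes at least 1 higher, 1229 were under an FPKM of 0.5 in every Control sample, and of those at least 1 lower, 372 were under it in every FK506 sample. The near equal split of directions depended on the scale: higher genes made up 50.9% of the calls with TMM normalization, 61.3% when only total counts were used, 60.5% on log2(FPKM + 1), 68.1% when the libraries were set equal on T cell genes and 47.9% after quantile normalization, where lower genes were the majority. The T cell scaling moved the change of the median gene by 0.36 on the log2 scale, total counts by 0.21 and the FPKM scale by 0.19, so fitted changes below are relative to a median of 0.020 over all tested genes, and a ratio of FPKM values can differ from them by that much.

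**Figure D1:**
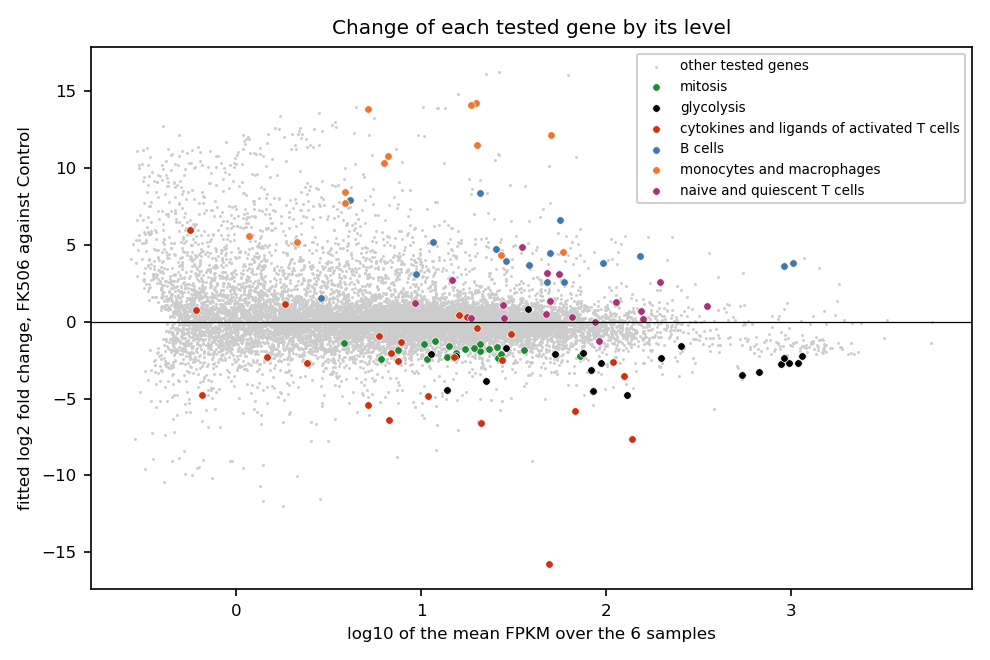
Fitted log2 fold change of FK506 against Control (y axis) against the log10 mean FPKM of the 6 samples (x axis) for the 14497 tested genes, with 6 gene lists in colour. All 19 mitosis genes lie below 0 and all 16 B cell markers above it, and fitted changes of genes at a count of 0 in a group depend on the prior count and are no bounds.

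Genes of the drug's own pathway moved in both directions, in shares near those over all genes. Of 24 genes for FK506 binding proteins, calcineurin subunits, NFAT factors and calcium entry, 22 passed the filter on level, 8 rose, 10 fell and 4 did not pass the test, beside 42.7% higher and 41.1% lower over all tested genes, which are the background of the counts in each list below as well. The median change was 0.036. Fkbp1a, which encodes FKBP12, was at 265, 254 and 264 FPKM in Control and at 88.1, 82.8 and 81.6 with FK506. All FK506 samples were below all Control samples (log2 change -1.83, SE 0.039, adjusted p = 8.79e-14). Ppp3ca, the alpha catalytic subunit of calcineurin, went the other way, from 2.57, 2.76 and 2.78 to 14.6, 14.7 and 14.6 FPKM (2.27, SE 0.049), while Ppp3cc, the gamma catalytic subunit, fell by 1.32 and Ppp3cb, the beta subunit, by 0.37.

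Among the NFAT factors, Nfatc1 rose from 40.9 ± 1.72 to 77.2 ± 3.06 FPKM (SD, n = 3; log2 change 0.71) and Nfatc3 from 22.8 ± 0.675 to 51.6 ± 2.46 (0.98). B cell markers (16 of 16) and macrophage markers (14 of 14 tested) rose beside Ppp3ca, Nfatc1 and Nfatc3, and their part was not tested. Nfatc2 fell by 0.95 and Nfat5, which responds to salt stress and does not need calcineurin, by 1.06. Rcan1, a calcineurin inhibitor whose gene is itself an NFAT target, was at 4.07, 3.40 and 3.92 FPKM in Control and at 5.43, 4.84 and 4.80 with FK506, a change of 0.20 that did not pass the test (adjusted p = 0.083). Rcan1 passed the test as higher on the total count scale (0.41), the T cell scale (0.56) and the FPKM scale (0.33), and with a filter at a mean FPKM of at least 1 (0.22).

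Cytokine genes of activated T cells were mostly lower. Of 27 cytokines and ligands, 25 were tested, 20 fell and 5 rose, and 17 fell by at least 1, beside 16.7% of all tested genes. The median change was -2.45, against 0.020 over all genes. Il3, Il5, Il21 and Il24 were under an FPKM of 0.5 in every FK506 sample and Il17f and Areg in every Control sample, so these 6 passed the filter through 1 group and had to differ. Il13, a type 2 cytokine, was at 279, 272 and 278 FPKM in Control and at 1.39, 1.20 and 2.43 with FK506 (log2 change -7.61, SE 0.12, adjusted p = 3.73e-15), with no overlap between the groups. Il4, which drives Th2 cells and class switching in B cells, went from 43.8, 39.0 and 43.1 to 0.670, 0.561 and 0.137 FPKM (-6.55, SE 0.19).

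Il21, a cytokine of follicular helper T cells, fell from 13.2, 13.2 and 13.5 to 0.179, 0.204 and 0.144 FPKM (log2 change -6.38, SE 0.093). Il24, an IL-10 family cytokine, had 19361 counts over the Control samples and none over the FK506 samples, which makes it at least 7718-fold lower when the FK506 group is set at a floor of 3 counts. Of all tested genes, 26 were at a count of 0 in every FK506 sample and 160 in every Control sample.

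Il2, the T cell growth factor, was a low transcript in Control on day 3, at 4.45, 3.85 and 3.98 FPKM, and was at 0.712, 0.871 and 0.626 with FK506. The groups did not overlap (log2 change -2.65, SE 0.18, adjusted p = 1.09e-08). Ifng, the defining cytokine of Th1 cells, fell from 11.1, 10.9 and 10.3 to 3.58, 2.97 and 2.39 FPKM (-2.04, SE 0.13). Lta, Lif, Csf2 and Il5 fell by 3.52, 5.82, 4.82 and 5.43, while Tnf, an inflammatory cytokine, fell by 0.80.

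The 5 members that rose were Cd40lg, Tnfsf11, Xcl1, Areg and Il17f. Cd40lg encodes the CD40 ligand with which helper T cells activate B cells, and was at 15.9, 13.8 and 14.2 FPKM in Control and 21.8, 20.3 and 20.9 with FK506 (log2 change 0.32, SE 0.066, adjusted p = 0.00053). Il17f, a Th17 cytokine, had 3 counts over the Control group and 253 over the FK506 group, a ratio of 70.5 with an exact 95% interval of 23.9 to 344 that covers counting error only. Il17a stayed under the filter, at 0.238, 0.168 and 0.3001 FPKM in Control and 0.691, 0.494 and 1.13 with FK506, and was not tested.

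**Figure D2:**
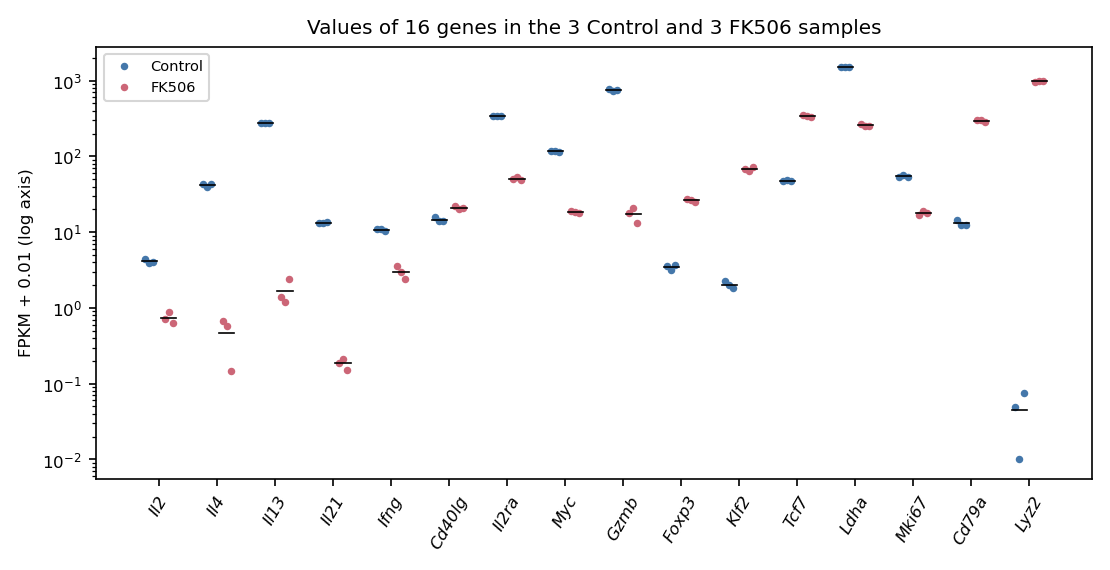
FPKM + 0.01 on a log axis for 16 genes, with 3 Control and 3 FK506 samples as points and the group mean as a bar. The points of the groups do not overlap for any of the 16 genes, and Il13 drops from 272 or more to 2.43 or less.

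Transcription factors induced by T cell activation split by member. Of 18, 7 rose and 11 fell, 4 and 8 of them by at least 1. Myc, which drives growth and glycolysis of dividing T cells, fell from 118, 117 and 113 to 19.1, 18.3 and 17.8 FPKM (log2 change -2.86, SE 0.039, adjusted p = 1.67e-15). Irf4, whose level follows the strength of T cell receptor signals, fell from 209, 201 and 203 to 43.3, 47.8 and 43.0 (-2.39). Egr2 fell by 0.64, whereas Nr4a1, an immediate early gene of receptor signalling, rose from 57.8, 60.3 and 53.9 to 146, 149 and 142 FPKM (1.12, SE 0.042). The largest rise of the list was Tox2, from 0.144 ± 0.0367 to 4.84 ± 0.474 FPKM (SD, n = 3; 4.69). The part of the B cell markers (16 of 16 higher) and macrophage markers (14 of 14 tested higher) in the rises was not tested.

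The IL-2 receptor pathway was lower in most members. Of 13 genes 10 fell, beside 41.1% of all tested genes, 2 rose and 1 did not pass. Il2ra, the high-affinity alpha chain (CD25), fell from 339, 342 and 338 to 50.7, 52.8 and 49.1 FPKM (log2 change -2.94, SE 0.037). Il2rb fell by 1.46, and Cish, a STAT5 target that dampens the signal, fell by 3.28, the largest fall of the list. Jak1, a kinase bound to the receptor, rose by 1.27, and Il2rg, the common gamma chain, was at 352 ± 6.32 and 420 ± 11.6 FPKM (SD, n = 3) with a fitted change of 0.051 (adjusted p = 0.17).

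Of 11 inhibitory receptors and ligands, 7 fell and 4 rose. Lag3 fell by 2.76 and Ctla4, a checkpoint that competes for CD80 and CD86, from 171, 178 and 176 to 59.7, 53.7 and 56.6 FPKM (-1.84, SE 0.041). Pdcd1, which encodes PD-1, was higher by only 0.15 (adjusted p = 0.0094), and Entpd1, the ectonucleotidase CD39, rose from 0.989 ± 0.0677 to 9.24 ± 0.766 FPKM (SD, n = 3; 3.02). B cells and macrophages express Entpd1 too, and the part of their markers, which rose in 16 of 16 and 14 of 14 tested cases, was not tested. Of 11 costimulatory and activation surface genes, 6 fell, 3 rose and 2 did not pass. Tnfrsf9 (4-1BB) fell from 461, 446 and 456 to 43.3, 44.6 and 39.6 FPKM (-3.52, SE 0.047) and Tnfrsf4 (OX40) by 2.56. Cd69, an early activation marker, was at 42.8, 41.6 and 43.0 FPKM in Control and 45.9, 51.0 and 48.6 with FK506, with a fitted change of -0.030 (adjusted p = 0.54) whose sign turned on the total count (0.18), T cell (0.34) and FPKM (0.19) scales. The largest rise was Cd7, from 0.212 ± 0.0889 to 7.08 ± 0.230 FPKM (SD, n = 3; 4.80).

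The Th1 list moved in both directions, with 6 of 13 genes higher and 7 lower. Tbx21, which encodes the Th1 factor T-bet, fell from 24.7, 22.9 and 24.0 to 3.64, 3.12 and 4.30 FPKM (log2 change -2.91, SE 0.086). Gzmb, a granzyme of cytotoxic cells, fell from 780, 730 and 750 to 17.97, 20.6 and 13.03 (-5.64, SE 0.12), and Il12rb2, the inducible chain of the IL-12 receptor, by 4.20. In contrast, Cxcr3, a chemokine receptor of Th1 cells, rose from 5.65, 4.55 and 4.03 to 34.5, 34.0 and 32.7 FPKM (2.63), and Il18rap, a chain of the IL-18 receptor, by 5.04. The part of the B cell markers (16 of 16 higher) and macrophage markers (14 of 14 tested higher) in these rises was not tested.

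Genes listed for Th17 cells were higher. Of 15 genes 12 passed the filter, and 10 of these rose and 2 fell, with a median change of 4.35, or 2.11 without the filter. Of the 12, 4 were under an FPKM of 0.5 in every Control sample, passed the filter through the FK506 group and had to differ. Il23r, a chain of the IL-23 receptor, rose from 0.118 ± 0.0444 to 4.604 ± 0.319 FPKM (SD, n = 3). Ccr6, a chemokine receptor that Th17 cells share with B cells, rose from 0.228, 0.237 and 0.322 to 37.3, 39.5 and 38.6 FPKM (7.03, SE 0.069), the largest change of the list. Il22, a Th17 cytokine, fell by 2.31, and Stat3, which signals for IL-6 and IL-23, by 0.40. All 16 B cell markers rose beside these genes, as did 14 of 14 tested macrophage and 7 of 7 tested dendritic cell markers, and their part in the rise was not tested.

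Of 12 Th2 and follicular helper genes 10 were tested, 7 fell and 3 rose. Il5 and Il21, which had to differ as given above, are 2 of the 7. Gata3, the Th2 factor, fell from 46.5, 46.1 and 46.5 to 13.7, 13.6 and 14.5 FPKM (log2 change -1.94, SE 0.038). The 3 that rose were Bcl6, Cxcr5 and Sh2d1a. Bcl6, the repressor that defines follicular helper T cells and germinal centre B cells, rose from 1.52, 1.26 and 1.43 to 20.3, 19.9 and 19.5 FPKM (3.64, SE 0.065), and Cxcr5, the receptor that leads T and B cells to follicles, by 2.58. The part of the B cell markers in these rises was likewise not tested.

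Regulatory T cell genes also moved both ways. Of 17, 7 rose, 8 fell and 2 did not pass, with a median of 0.032. Foxp3, the lineage factor, was at 3.54, 3.19 and 3.70 FPKM in Control and at 27.7, 26.9 and 25.4 with FK506, with no overlap (log2 change 2.74, SE 0.059, adjusted p = 9.51e-14). Ikzf2 (Helios) rose by 2.43 and Nrp1, common on thymus-derived regulatory cells, by 2.29. Among those that fell were Il2ra, Ctla4, Tnfrsf18 (-2.28) and Il10 (-1.32). Klrg1, a receptor of differentiated T cells, showed the largest rise of the list, at 2.77. Markers of B cells (16 of 16), macrophages (14 of 14 tested) and dendritic cells (7 of 7 tested) rose beside these genes, and their part in the rises was not tested.

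Genes of naive and quiescent T cells rose. Of 18, 16 rose, 10 of them by at least 1, beside 42.7% and 19.0% of all tested genes, 1 fell and 1 did not pass, with a median of 1.08. Klf2, which holds T cells quiescent and controls their exit from tissue, was at 2.25, 1.97 and 1.80 FPKM in Control and at 69.1, 64.5 and 72.3 with FK506 (4.90, SE 0.073, adjusted p = 3.00e-15). Tcf7, which encodes TCF-1, rose from 47.7, 48.2 and 47.1 to 348, 344 and 336 FPKM (2.60, SE 0.033), and Ccr7, the receptor for entry into lymph nodes, by 1.04. Satb1, a chromatin organiser, was the member that fell (-1.24). B cells use Klf2 and Ccr7 as well, and the part of their markers, which rose in 16 of 16, was not tested.

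The genes of T cell identity and receptor signalling kept similar summed levels, as given above. Of 20, 9 rose and 11 fell, none rose by 1 and 4 fell by it. Trac, the constant region of the receptor alpha chain, rose by 0.67, Cd4 by 0.30 and Cd3e by 0.15. Thy1, a surface glycoprotein of mouse T cells, fell from 153, 152 and 152 to 67.7, 69.2 and 68.4 FPKM (log2 change -1.36, SE 0.031). Cd2 and Lcp2 were also among those that fell by at least 1.

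**Figure D3:**
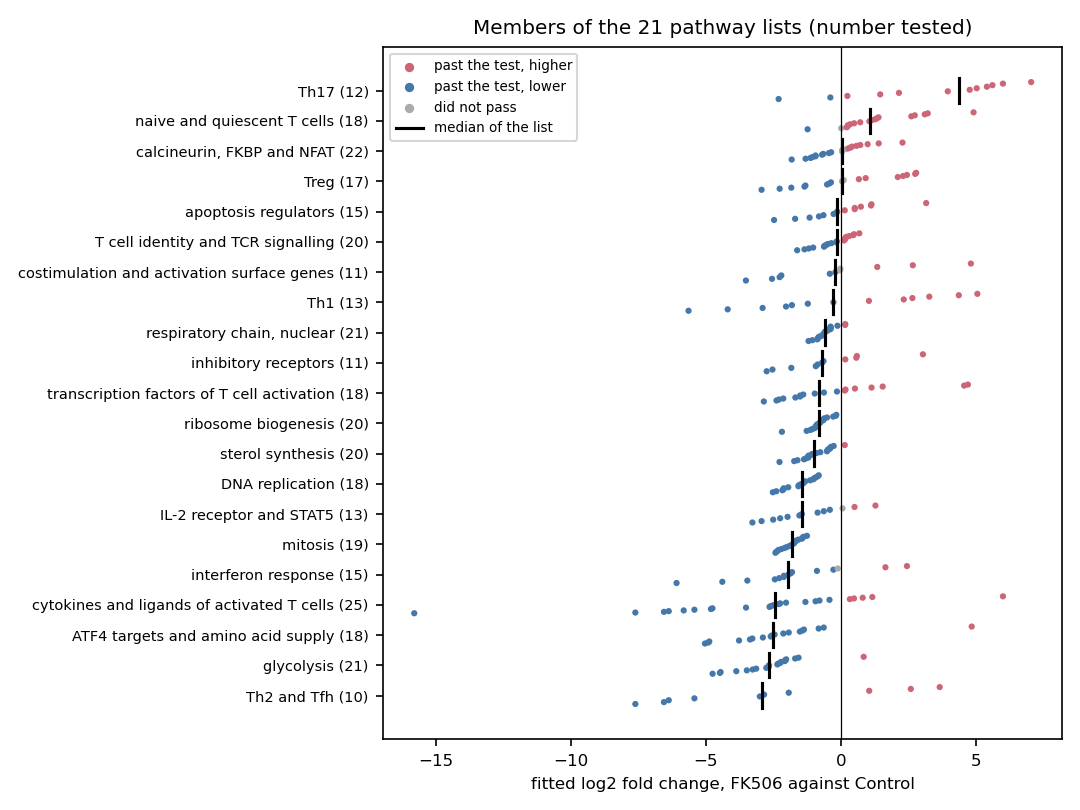
Fitted log2 fold change of FK506 against Control for each tested member of the 21 pathway lists (x axis), coloured by call, with the list median as a black bar and lists ordered by median. All tested members of the DNA replication, mitosis and ribosome biogenesis lists are lower, and 16 of 18 naive and quiescent genes are higher.

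Cell cycle genes fell. All 18 DNA replication genes were lower, 14 by at least 1 (median -1.45), and all 19 mitosis genes were lower by at least 1 (median -1.81), beside 41.1% of all tested genes that were lower and 16.7% that were lower by at least 1. Mki67, the proliferation antigen Ki-67, fell from 53.3, 56.5 and 53.7 to 16.8, 19.3 and 17.9 FPKM (-1.81, SE 0.047). Top2a, the topoisomerase of dividing cells, fell from 111, 121 and 118 to 28.04, 29.8 and 29.1 (-2.21), and Cdk1 by 2.32. Mcm5, part of the replicative helicase, fell by 1.49 and Rrm2, which makes deoxynucleotides, by 1.38. The largest falls were Gins2 in replication (-2.53) and Bub1 in mitosis (-2.43).

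Glycolysis genes fell, with a median change of -2.67. Of 21 genes 20 fell, all 20 by at least 1, beside 41.1% and 16.7% of all tested genes. The summed FPKM of the 21 fell from 12240 to 12480 in Control to 2281 to 2382 with FK506. Slc2a1, the glucose transporter GLUT1, fell from 143, 149 and 147 to 19.4, 19.1 and 18.9 FPKM (log2 change -3.14, SE 0.036, adjusted p = 4.81e-16). Slc2a3 (GLUT3) fell from 240, 258 and 253 to 10.9, 11.7 and 9.46 (-4.76), and Hk2, the inducible hexokinase, by 3.88. Ldha, which turns pyruvate to lactate, fell from 1522, 1531 and 1511 to 266, 253 and 250 FPKM (-2.77). Pfkfb3, whose product raises fructose 2,6-bisphosphate, was the member that rose, from 24.9 ± 0.375 to 50.8 ± 0.937 FPKM (SD, n = 3; 0.83).

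Genes of amino acid supply were lower as well. Of 18 targets of ATF4 and genes of amino acid supply, 17 fell, beside 41.1% of all tested genes (median -2.52). Asns, the asparagine synthetase, fell from 86.9, 92.4 and 90.7 to 3.62, 2.76 and 3.02 FPKM (-5.04, SE 0.071), Slc7a5, a transporter of large amino acids, by 3.37 and Mthfd2, of mitochondrial one-carbon metabolism, by 2.57. Slc7a11, the cystine transporter, was the exception and rose from 0.338, 0.267 and 0.296 to 9.65, 10.3 and 9.59 FPKM (4.83, SE 0.071). Macrophages express this transporter too, and 14 of 14 tested macrophage markers rose beside it; their part in its rise was not tested.

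Of 20 sterol synthesis genes 19 fell, 10 by at least 1 (median -0.99). Sqle, the squalene epoxidase, fell by 1.22 and Fdps, which makes farnesyl diphosphate, fell by 2.28. All 20 ribosome biogenesis genes fell, 4 by at least 1, which is near the 16.7% over all genes, and 17 of the 20 passed as lower on the total count and T cell scales. The FPKM of Bop1 (-0.18) and Polr1a (-0.29) overlapped between the groups. Npm1 (nucleophosmin) had the largest fall of the list (-2.19), and Nop56 was at -1.14 and Ncl (nucleolin) at -1.28. Of 21 nuclear genes of the respiratory chain 19 fell, but only 2 by at least 1 (median -0.61). These were Cycs, which encodes cytochrome c, and Atp5b. Ndufs1 and Sdha rose by 0.15 each, Ndufs1 with an adjusted p of 0.012 that missed the threshold without FK506 replicate 1 (adjusted p = 0.06) and without the filter (adjusted p = 0.065), and Cox5a fell by 0.39. On the T cell scale 14 members of this list passed as lower, and Cox5a passed neither there (-0.028) nor after quantile normalization (-0.077).

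Interferon response genes were lower in 12 of 15 cases, beside 41.1% of all tested genes, and higher in 2, with a median of -1.95. Isg15, a ubiquitin-like modifier induced by interferon, fell from 189, 182 and 189 to 10.9, 11.5 and 7.89 FPKM (log2 change -4.39, SE 0.086), and Ifi44 from 20.3, 19.1 and 20.1 to 0.345, 0.360 and 0.277 (-6.09). Irf7, the factor that amplifies type I interferon, fell by 2.11. The members that rose were Ifit3, from 0.695, 1.14 and 1.21 to 6.41, 6.05 and 6.45 FPKM (2.43), and Cxcl10, a ligand of CXCR3, by 1.64. Markers of macrophages (14 of 14 tested) and dendritic cells (7 of 7 tested) rose beside them, and their part in these rises was not tested.

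Among 15 apoptosis regulators 7 rose and 8 fell. Bcl2, which protects lymphocytes, fell from 54.4, 52.8 and 53.8 to 10.9, 11.3 and 10.98 FPKM (-2.48, SE 0.035). Bcl2l11, which encodes the death inducer BIM, rose from 13.9, 14.3 and 14.4 to 34.4, 36.5 and 33.4 (1.10) and Bmf, another BH3-only gene, by 3.14. Mcl1, a survival gene, rose by 0.50. B cells and myeloid cells use these genes too, and the part of their markers, higher in 16 of 16 B cell and 14 of 14 tested macrophage cases, was not tested. The number of falls went from 8 to 5 on the total count, T cell and FPKM scales.

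Markers of cells other than CD4+ T cells were higher with FK506 in most lists. The methods describe selection with beads for CD4 before the culture. All 16 B cell markers rose by at least 1 (median 3.89), beside 19.0% of all tested genes. Cd79a, part of the B cell receptor, was at 14.3, 12.5 and 12.5 FPKM in Control and at 299, 300 and 282 with FK506 (log2 change 4.28, SE 0.054, adjusted p = 9.76e-16). Ms4a1 (CD20) rose by 4.45 and Fcrla from 0.0996 ± 0.0461 to 41.7 ± 3.08 FPKM (SD, n = 3; 8.36). None of the 16 was at 0 in Control, and 2 were under an FPKM of 0.5 there in every sample. All 9 genes of MHC class II presentation rose as well, H2-Aa from 27.0, 28.03 and 27.4 to 730, 686 and 663 FPKM (4.45), Cd74, the invariant chain, by 4.15 and Ciita, their activator, by 4.27. H2-DMa, which helps load peptides, had the smallest rise (1.06), and its FPKM overlapped between the groups, at 16.4, 18.01 and 4.72 in Control and 14.7, 46.7 and 37.7 with FK506.

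Antibody genes of later B cell stages did not all follow. Of 12 plasma cell markers 10 were tested, 6 rose, 3 fell and 1 did not pass. Jchain, the joining chain of polymeric antibodies, rose by 6.12. Those that fell were Ighe, Ighg1 and Xbp1. Ighg1, the constant region of IgG1, fell from 10.3, 12.5 and 11.2 to 2.28, 2.87 and 2.39 FPKM (-2.37, SE 0.11). Ighe, the constant region of IgE, had 385 counts over the Control group and none over the FK506 group, at least 153-fold lower. Sdc1 (CD138) was at 3.81 ± 0.113 and 4.31 ± 0.143 FPKM (SD, n = 3), with a fitted change of -0.019 (adjusted p = 0.82) whose sign turned on the total count (0.19), T cell (0.35) and FPKM (0.14) scales and which passed as lower after quantile normalization (-0.15).

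Macrophage genes went from near absence to high levels. Of 15 markers of monocytes and macrophages 14 were tested and all 14 rose. Of these, 12 were under an FPKM of 0.5 in every Control sample, passed the filter through the FK506 group and had to differ. Among the 15, 4 were at 0 in every Control sample, and none in FK506. Lyz2, lysozyme, was at 0.0397, 0 and 0.0657 FPKM in Control and at 972, 978 and 993 with FK506. C1qa, a complement subunit of tissue macrophages, had no count in Control and 7830 over the FK506 group, at least 2183-fold higher, and Adgre1 (F4/80) was at least 1668-fold higher. Csf1r, the receptor for the macrophage growth factor, was at 12.4, 13.1 and 14.2 FPKM with FK506 and at 0.00924 or less in Control.

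Genes of the iron-recycling macrophages of the splenic red pulp were among them. Of 9 markers 7 were tested, 6 rose and Axl fell, by 1.56. Of these, 5 were under an FPKM of 0.5 in every Control sample, passed the filter through the FK506 group and had to differ. Spic, the factor that defines these cells, was at least 1742-fold higher, at 27.8, 26.2 and 27.3 FPKM with FK506, and Slc40a1, the iron exporter ferroportin, at least 9064-fold higher, at 52.3, 52.4 and 54.2. Hmox1, the heme oxygenase that frees iron from heme, rose from 8.42, 8.67 and 8.23 to 445, 426 and 467 FPKM (log2 change 5.52, SE 0.050). Cd163 stayed at or under 0.0348 FPKM in all 6 samples.

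Markers of neutrophils, dendritic cells, basophils, platelets and stroma were higher at lower levels. Of those tested, 7 neutrophil, 3 dendritic cell, 4 basophil and mast cell, 3 erythroid and platelet and 4 stromal markers were under an FPKM of 0.5 in every Control sample and had to differ. For neutrophils 8 of 11 were tested, 7 rose, or 4 at a mean FPKM of at least 1, where fewer genes are tested, and Ly6g fell by 4.30. S100a8 had no count in Control and was at 12.3, 8.65 and 11.5 FPKM with FK506, and S100a9 was at least 518-fold higher. All 7 tested dendritic cell markers of 11 rose, with Itgax (CD11c) higher by 7.03 and Flt3, a growth factor receptor of their precursors, by 5.36, while Siglech, of plasmacytoid cells, was at 0.0619 FPKM or less and not tested. Basophil and mast cell markers were tested in 5 of 9 cases and 4 rose, Mcpt8 at least 131-fold and Kit by 7.80. All 4 tested of 12 erythroid and platelet markers rose, Pf4 by 6.91, with Hba-a1 and Hbb-bs under the filter, and all 5 tested of 10 stromal and endothelial markers, Col1a1 by 3.27 and Pecam1 by 1.82. Summed FPKM of these lists were 37.2 to 48.1 for neutrophils, 369 to 382 for dendritic cells, 31.2 to 37.1 for basophils and mast cells, 12.4 to 19.1 for erythroid cells and platelets and 46.9 to 54.0 for stroma with FK506. In Control they were 2.96 to 3.20, 16.3 to 17.6, 0.844 to 1.19, 0.746 to 1.08 and 10.1 to 10.4.

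Genes of CD8 T and NK cells went the other way in sum, from 115 to 121 FPKM in Control to 39.6 to 44.7 with FK506. Of 11, 8 were tested, 5 fell and 2 rose. Gzma, granzyme A, fell by 5.30 and Nkg7, of cytotoxic granules, by 2.97, and Gzmk rose by 4.10 and Eomes by 3.26. Cd8a was low in both groups, at 1.32, 1.25 and 1.27 FPKM in Control and 1.77, 1.65 and 1.40 with FK506 (0.13, adjusted p = 0.36), with a sign that turned after quantile normalization (-0.19). Cd8a passed the test as higher on the total count (0.34), T cell (0.495) and FPKM (0.19) scales. Ncr1, of NK cells, was at 0.192 FPKM or less in all 6 samples.

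**Figure D4:**
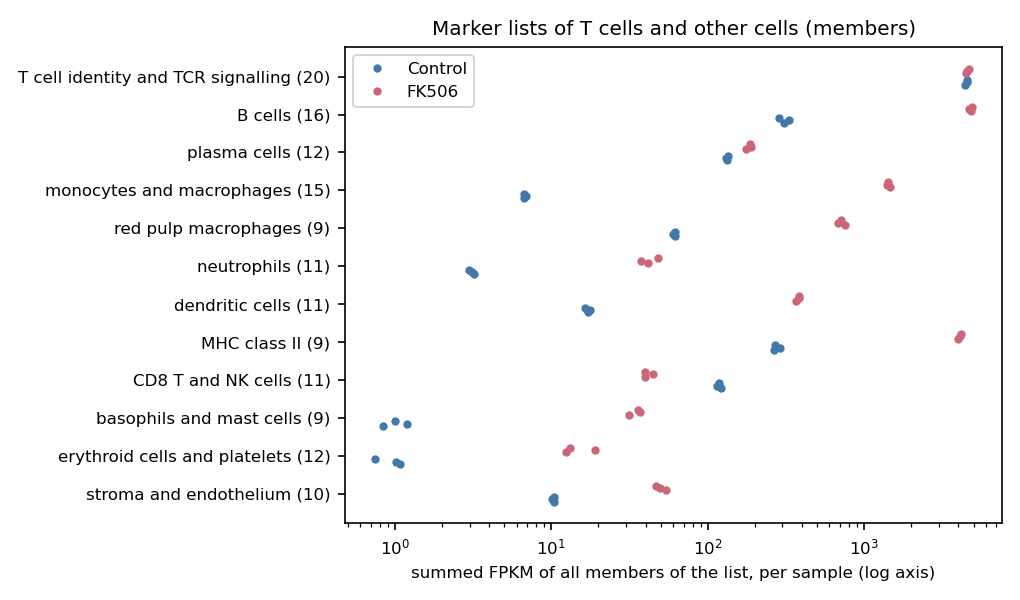
Summed FPKM of all members of each marker list in each sample on a log axis, with Control and FK506 samples as points and the number of members in brackets. The T cell sums lie between 4436 and 4687 in both groups, and B cell sums move from 284 to 329 up to 4674 to 4898. The sums of CD8 T and NK cell genes are lower with FK506, while of 8 tested members 5 fell and 2 rose.

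Some further members named above passed the filter through 1 group and had to differ. Tox2, Cd7, Il18rap, Klrg1, Slc7a11, Fcrla and Gzmk were under an FPKM of 0.5 in every Control sample. Ifi44, Ighe, Ly6g and Gzma were under it in every FK506 sample.

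Among called genes whose groups did not overlap and whose mean FPKM over the 6 samples was at least 5, the 12 largest rises held 7 members of the macrophage and red pulp lists. All 12 were under an FPKM of 0.5 in every Control sample, passed the filter through the FK506 group and had to differ. Mmp12, a macrophage elastase, was at least 8230-fold higher and at 44.5, 45.2 and 45.1 FPKM with FK506. Clec4n, which encodes the fungal receptor dectin-2, was at least 7695-fold higher, at 129, 116 and 130 FPKM. Pla2g7, a secreted phospholipase, was at least 3272-fold higher, and H2-M2, a class Ib MHC gene, and the chemokine gene Ccl6 at least 1793-fold and 1747-fold. Treml4 and C1qc had bounds of 1829-fold and 2009-fold. The rest of the 12 were Slc40a1, C1qa, Lyz2, Spic and Adgre1, described above.

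The 12 largest falls by the same rule included Il24, Il13, Il4 and Il21 and the interferon response gene Ifi44. Serpinf1, which encodes the secreted factor PEDF, fell from 82.9, 77.3 and 77.8 to 0.0700, 0.213 and 0.240 FPKM (log2 change -9.03, SE 0.12). Cth, the cystathionine gamma-lyase that makes cysteine, fell from 23.8, 24.7 and 23.3 to 0.0886, 0.0872 and 0.0639 FPKM (-8.31, SE 0.11). Both genes were chosen from those without overlap. At 47 and 28 counts over the FK506 group, their SE, derived from the test statistic, was smaller than counting error alone. Osr2, a zinc finger factor (-8.79), Mgarp, of mitochondria (-7.05), Kremen2, a transmembrane protein with a kringle domain (-6.74), Fam71b (-6.48) and Lama5, a laminin chain (-6.27), fell on the same scale. Of these 7, all but Fam71b were under an FPKM of 0.5 in every FK506 sample, passed the filter through Control and had to differ.

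By the difference in mean FPKM, the 8 largest rises were of Lyz2, Cd74 and transcripts of iron storage, antibodies and mitochondria. Ftl1, the ferritin light chain, went from 496, 509 and 488 to 3196, 2999.7 and 3205 FPKM (log2 change 2.45), and Fth1, the heavy chain, from 199.9, 203 and 195.5 to 2651, 2532 and 2714 (3.52, SE 0.040). Ighm and Igkc, the constant regions of IgM and of the kappa light chain, rose by 3.65 and 3.82, and CYTB and ND1, of the mitochondrial genome, by 1.38 and 0.69. The 8 largest falls were mostly of the translation machinery. Eef1a1, an elongation factor, went from 7780, 8140 and 7990 to 3646, 3597 and 3451 FPKM (-1.36), Rps18 fell by 2.11, Rpl12 by 2.02, Rplp1 by 1.99, Rpl41 by 1.75, Rpl4 by 1.66 and Tpt1 by 1.03. Rpl13a changed by a similar amount (-2.095). Ribosomal protein genes have many near-identical pseudogenes, and how shared reads were counted is not given in the sources used here, so their values are uncertain.

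FK506 was also given with metformin, and its effect there was estimated against metformin alone in a fit of all 12 samples, with a contrast that shares no sample with FK506 against Control. In that setting 2418 of the 14497 genes rose by at least 1 (16.7%) and 2056 fell (14.2%). Of these, 2048 also rose and 1659 also fell with FK506 alone. That is 74.2% and 68.6% of the genes changed with FK506 alone, and 84.7% and 80.7% of those changed on metformin. By at least 1, 11 rose with FK506 alone and fell on metformin, and 30 did the reverse. The genes were filtered on the FK506 and Control samples only, so genes expressed only with metformin could not enter these shares. Without the filter, 4091 genes rose by at least 1 on metformin. The 2 effects differed by the interaction term for 6995 genes (48.3%), for 1703 of them by at least 1 (11.7%). The fit used a shared spread per gene for all groups, although replicates with both drugs differed more. Between replicates, the chi-square of counts per degree of freedom was 10.8 to 15.2 with both drugs and 7.11 to 10.7 with FK506. It was 5.41 to 5.81 with metformin and 3.98 to 4.96 in Control.

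The interaction was positive for Il2, Ifng and Foxp3 and negative for Mki67 and Cd79a. Il2 fell by 2.65 without metformin and by 0.91 with it, a difference of 1.74 (SE 0.38, adjusted p = 0.00134), and was at 1.63, 1.64 and 2.01 FPKM with metformin alone and 0.639, 0.854 and 1.65 with both drugs, where the groups overlapped. Ifng fell by 2.04 and by 0.79 (difference 1.26, SE 0.19). Foxp3 rose by 2.74 and by 3.55 (difference 0.81, SE 0.11, adjusted p = 1.19e-05), to 32.4, 30.7 and 33.6 FPKM with both drugs. The starting levels differed too, with a mean of 3.48 FPKM in Control and 2.49 with metformin alone. With FK506 the means were 26.7 without metformin and 32.3 with it. Mki67 fell by 1.80 and by 2.24 (difference -0.44, SE 0.064). Cd79a rose by 4.28 and by 2.95 (difference -1.33, SE 0.080), to 156, 152 and 160 FPKM. For Lyz2 the difference of -1.39 had an SE of 1.05 (adjusted p = 0.30), with 0 to 0.126 FPKM in the samples on metformin alone.

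Some lists had other medians on metformin. The 15 interferon response genes had a median of -1.95 with FK506 alone and of 0.70 on metformin, where 6 rose and 2 fell by at least 1. For the 21 glycolysis genes the medians were -2.67 and -0.98, and 9 fell by at least 1 on metformin. The differences between these medians were not tested.

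**Figure D5:**
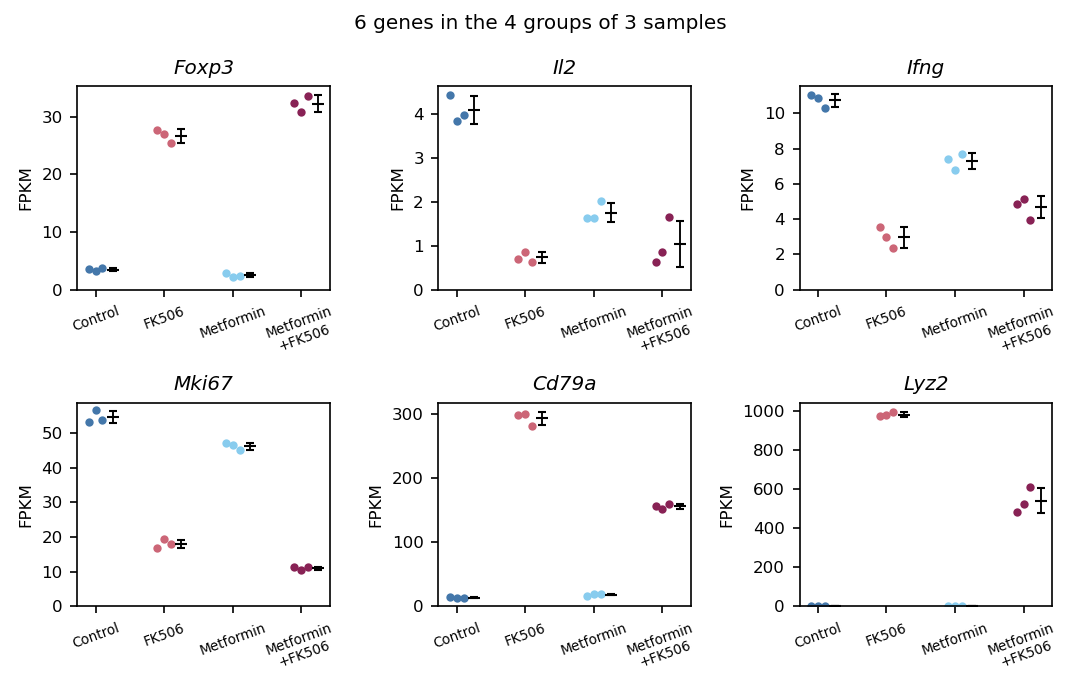
FPKM of 6 genes in the 3 samples of each of the 4 groups, with points for samples and a bar for the mean and SD. Foxp3, Cd79a and Lyz2 are high in both groups with FK506, and Cd79a reaches 294 on average without metformin and 156 with it.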

How the data were processed

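RNA of 12 samples in 4 groups was sequenced, and the authors deposited 1 table with read counts per gene (whole numbers, not normalized) and FPKM values scaled to library size and transcript length. A further 12 columns of per-sample values (TPM) were not used. The submitters' processing notes name bcl2fastq 2.20.0, Trimmomatic, HISAT2 2.1.0, StringTie 2.1.3b and mm10. The counting program, strand setting and treatment of shared reads are not given in the sources used here, so overlapping genes and close copies are uncertain. The statistics paragraph of the study names general tests between groups without saying which, if any, was used for the sequencing.

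Samples were grouped by their labels. The counts of 3 FK506 and 3 Control samples were compared with edgeR 4.0.16 (TMM, glmQLFit and glmQLFTest, two-sided) in R 4.3.3, with Benjamini-Hochberg adjustment over the 14497 tested genes and a threshold of 0.05. The code was tested on simulated data. Totals of 45675960 to 63164427 counts make counting error small except for genes with few counts over a group, down to the floor of 3 counts. Floors and exact 95% intervals cover counting error only. The SE of a log2 change was its absolute size divided by the square root of the test's F statistic, not a separate estimate. Where a group has few counts, this SE can be smaller than counting error. DESeq2 1.42.0, limma 3.58.1, other scalings and filters, a replicate block and leaving out each sample were tried as alternatives. Promoters are RefSeq records of GRCm38.p6.

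The members and the 33 gene lists were chosen with earlier results of these data known. Named genes were the lead genes of each list with its largest rise and fall, the 12 largest rises and 12 largest falls among called genes whose groups did not overlap and whose mean FPKM was at least 5, and the 8 largest rises and 8 largest falls in mean FPKM. Further members named as examples or to complete short counts were chosen after their values were seen. Some lead genes counted in the lists are not reported here by name.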

Additional observations from a re-analysis of the deposited data

Results flagged for a closer look

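The effect of FK506 differed with and without metformin, by the interaction term of edgeR's quasi-likelihood test in the fit of all 12 samples, for 6995 of 14497 genes (48.3%). The interaction was computed for 6 named genes and 5 passed the test. On the log2 scale it was 0.81 for Foxp3 (adjusted p = 1.19e-05), 1.74 for Il2 (adjusted p = 0.00134), 1.26 for Ifng (adjusted p = 4.17e-05), -0.44 for Mki67 (adjusted p = 3.14e-05) and -1.33 for Cd79a (adjusted p = 7.22e-10). The groups hold 3 samples each, so single samples were not examined as outliers.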

How the results depend on the processing

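Of 150 named genes tested, 144 kept their direction and their side of the threshold under every alternative run. Among list counts 556 of 561 stayed within 1.5 times, and among gene counts 156 of 162. Without 1 sample, 6018 to 6106 genes rose, 5744 to 5875 fell and 6436 to 7031 had an interaction. The T cell scale left 3975 genes lower, log2(FPKM + 1) left 1388 lower by at least 1, and quantile normalization left 1693 higher by at least 1. Without the filter, 8064 genes changed by at least 1, 4808 of them higher, and 4091 rose by at least 1 when FK506 was added to metformin. Apoptosis members that fell went from 8 to 5 on the total count, T cell, log2(FPKM + 1) and log2(FPKM + 0.1) scales, and neutrophil markers that rose from 7 to 4 at a mean FPKM of at least 1, where fewer genes are tested.

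Cd69, Sdc1 and Cd8a, none of which passed the test, turned sign. For Cd69 and Sdc1 the turns on total counts and the T cell scale equal the shift of the median gene there (0.21 and 0.36), and the cause of the other turns was not tested. Cd69 was at 0.18 on total counts, 0.34 on the T cell scale, 0.19 on log2(FPKM + 1) and on log2(FPKM + 0.1), 0.15 after quantile normalization and 0.011 without FK506 replicate 1, with a range of -0.070 to 0.011 over the left-out samples. Sdc1 was at 0.19, 0.35, 0.0057, 0.14 and 0.18 on total counts, the T cell scale, the stricter filter, log2(FPKM + 1) and log2(FPKM + 0.1), and -0.044 to 0.0052 over the left-out samples, and passed the test as lower after quantile normalization (-0.15). Cd8a was at -0.19 after quantile normalization and passed as higher on total counts (0.34), the T cell scale (0.495), log2(FPKM + 1) (0.19) and log2(FPKM + 0.1) (0.30).

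The replicate numbers did not pair the samples: same-numbered samples had correlations of deviations of -0.096, -0.028 and -0.0037. With a replicate block 11969 genes passed, 6090 higher and 5879 lower, 5176 by at least 1 (2758 higher and 2418 lower), and 6741 had an interaction. Depth limits the values of genes with few counts in 1 group, such as Il17f and Osr2.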

Other observations

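Gene families outside the lists were chosen after their values were seen. Over all tested genes 42.7% were higher and 41.1% lower, and 19.0% and 16.7% by at least 1. Of 120 immunoglobulin heavy chain V segments 84 were tested and all 84 rose by at least 1 (median 3.69), with summed FPKM of 49.4 to 64.6 in Control and 959.8 to 1019 with FK506. All 82 tested kappa V segments rose as well (median 3.64). Of the tested heavy chain and kappa segments, 35 and 26 were under an FPKM of 0.5 in every Control sample, passed the filter through the FK506 group and had to differ. T cell receptor alpha V segments rose in 72 of 105 cases and none fell (median 0.63). By at least 1, 17 rose (16.2%), near the share over all tested genes. Beta V segments rose in 12 and fell in 3 of 22, and 4.5% rose by at least 1, under that share. Segments of a family are similar in sequence and may share reads, so their values are uncertain.

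All 77 cytosolic ribosomal protein genes fell, 73 by at least 1 (median -1.56), beside 41.1% and 16.7% of all tested genes. Of the 13 protein genes of the mitochondrial genome 11 rose, beside 42.7% of all tested genes, and 1 fell (median 0.69). Of 826 tested pseudogenes, 416 fell by at least 1 (50.4%) and 45 rose by it (5.4%), beside 16.7% and 19.0% of all tested genes. Among 782 tested lncRNA genes 36.5% rose and 19.8% fell by at least 1, beside 17.9% and 14.5% of 11911 protein-coding genes. All 5 tested replication-dependent histone genes fell (median -1.44), 3 of which were under an FPKM of 0.5 in every FK506 sample and had to differ. The part of shared reads and of other cells in these values was not tested.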
